A study of Mus musculus with 6 samples.

Results

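Genes for the handling of fatty acids and genes of the fat cell were followed through 6 RNA-seq libraries of mouse endothelial cells. The 10 genes were chosen by name from the 24421 gene symbols of the count table. They were split by known role into 6 capillary lipid uptake genes (Gpihbp1, Lpl, Cd36, Fabp4, Fabp5 and Pparg) and 4 adipocyte genes (Adipoq, Plin1, Cidec and Car3). Most reads of the adipocyte genes lay in the skin library labelled Cont, whereas the uptake genes were measured in skin and, for 4 of the 6, in culture. In the skin pair the 4 adipocyte genes were all lower in the library labelled cKO, by 4.87-fold for Cidec and 37.4-fold for Car3, with Adipoq and Plin1 down to 1 and 0 reads, and no uptake gene differed by more than 3-fold. In both cultured pairs Gpihbp1 was lower in the Dot1l-overexpressing library, by 4.42-fold in BECs and 5.58-fold in LECs. Scaled to endothelial marker reads, which were themselves lower in OE-BECs, the BEC difference was no longer past 3-fold.

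The study compared blood endothelial cells (BECs) and lymphatic endothelial cells (LECs) with altered levels of Dot1l, the histone H3 lysine 79 methyltransferase. Skin BECs came from E15.5 embryos that all carried the floxed allele Dot1l 2f/2f, without Cre in the controls (Tie2-Cre(−), Cont) and with it in the conditional knockouts (Tie2-Cre(+), cKO). They were sorted as cells negative for F4/80, CD45 and Lyve1, and a figure legend of the study also lists the BEC marker CD31 as positive. The RNA of 2 to 3 embryos was pooled into 1 library per genotype. Tie2-Cre is driven from the promoter of an endothelial receptor gene and is known to act in blood cell lineages too. Cultured cells were the embryonic yolk sac BEC line CRL-2581 and the embryonic dermal LECs C57-6064L. OE-BECs and OE-LECs received a lentivirus with guide RNAs to the Dot1l promoter, dCas9-VP64 (a cutting-dead Cas9 fused to a transcriptional activator) and EGFP. Their controls, Cont BECs and Cont LECs, received empty lentivirus. EGFP-positive cells of 2 to 3 flasks made 1 library each. With 1 library per group no difference could be set against the spread between replicates, so each comparison describes 2 libraries. Intervals given here are exact 95% intervals that cover counting error only.

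Capillaries take up fat in steps. Lipoprotein lipase is made outside the vessel, is carried across the endothelium and held on its lumenal face by GPIHBP1, and there frees fatty acids from circulating triglyceride. CD36 and fatty acid binding proteins then move the fatty acids through the endothelial cell, and PPARγ, a nuclear receptor that works with RXR, switches on several of these genes in capillaries, macrophages and fat cells alike. Adiponectin, the droplet proteins perilipin 1 and CIDEC, and the abundant enzyme carbonic anhydrase 3 belong to the mature fat cell.

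Promoters are shown for 3 of the adipocyte genes, which moved together in skin, and for Cd36, the uptake gene with the widest gap between skin and culture. RefSeq (GRCm38.p6) gave windows of 250 bases before to 50 after the start for 5 of the 10 members. Gpihbp1, Lpl, Fabp4, Fabp5 and Car3 were not matched. Capitals mark the letters AGGTCA (the half-site bound by nuclear receptors such as PPARγ), CCAAT (the CCAAT box) and TATAAA (the TATA box), searched on both strands. A half-site is also part of the full PPAR response element, which repeats it directly after 1 spacer base. The Adipoq window lies at chr16:23146286-23146585 on the plus strand, the Plin1 window at chr7:79732727-79733026, the first Cidec window at chr6:113435711-113436010 and the Cd36 window at chr5:17835847-17836146, these 3 on the minus strand.
Adipoq: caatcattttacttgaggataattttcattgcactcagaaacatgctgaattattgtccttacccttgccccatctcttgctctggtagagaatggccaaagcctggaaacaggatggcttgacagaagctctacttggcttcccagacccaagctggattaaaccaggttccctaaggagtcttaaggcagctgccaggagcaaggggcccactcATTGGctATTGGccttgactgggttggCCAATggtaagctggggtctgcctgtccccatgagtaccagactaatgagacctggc
Plin1: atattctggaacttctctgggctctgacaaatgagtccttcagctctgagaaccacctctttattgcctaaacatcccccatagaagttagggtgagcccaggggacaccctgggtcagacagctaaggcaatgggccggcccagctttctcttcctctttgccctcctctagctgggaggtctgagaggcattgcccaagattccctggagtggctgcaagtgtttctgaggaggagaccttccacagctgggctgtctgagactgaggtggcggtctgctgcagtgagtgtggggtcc
Cidec: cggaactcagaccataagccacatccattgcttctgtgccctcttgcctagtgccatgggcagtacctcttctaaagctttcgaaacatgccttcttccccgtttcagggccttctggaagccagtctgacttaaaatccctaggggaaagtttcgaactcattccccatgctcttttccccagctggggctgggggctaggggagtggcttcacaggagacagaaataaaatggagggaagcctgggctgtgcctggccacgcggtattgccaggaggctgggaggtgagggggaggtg
Cd36: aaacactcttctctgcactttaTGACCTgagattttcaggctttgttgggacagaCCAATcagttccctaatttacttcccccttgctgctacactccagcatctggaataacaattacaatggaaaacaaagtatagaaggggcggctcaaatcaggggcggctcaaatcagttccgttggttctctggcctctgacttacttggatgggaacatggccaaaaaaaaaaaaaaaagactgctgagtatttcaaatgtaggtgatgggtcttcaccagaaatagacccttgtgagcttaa
The Adipoq window held 3 CCAAT boxes, and CCAAT occurred in 37.4% of 32544 promoter windows. The Cd36 window held 1 half-site and 1 CCAAT box, where a half-site occurred in 16.2% of windows. The Plin1 window and both Cidec windows held none of the motifs. Of the 3 Pparg windows, 2 held a half-site, 2 a CCAAT box and 1 a TATA box, a motif found in 13.6% of windows. No member's window held the full element, which was found in 0.0399% of windows. These matches describe letters only.

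The libraries held 8863349 to 31032461 counted reads, and 3 reads, taken as the floor, corresponded to 0.0967 to 0.338 CPM (counts of a gene per 1000000 counted reads). Dot1l, the targeted gene, had 86.0 CPM in the library labelled Cont and 85.2 CPM in the library labelled cKO of the skin pair. Its total count thus did not separate the genotypes, and gene totals do not show which exons were read. The study reports a check of the Dot1l knockout by RT-qPCR. In culture Dot1l had 111.5 CPM in Cont BECs and 302.0 CPM in OE-BECs, and 95.3 CPM in Cont LECs and 217 CPM in OE-LECs. The 14 pan-endothelial markers summed to 4621 to 9493 CPM in the 6 libraries, and were mostly lower in the changed library of each pair. In skin 12 of 14 were below 0 on the log2 scale with 0 called (7059 and 4621 CPM), in BECs 12 of 14 with 3 called lower (9493 and 6024 CPM), and in LECs 11 of 14 with 1 called lower (7859 and 6957 CPM). Of the 7 lymphatic markers, Prox1, which defines lymphatic endothelium, had no reads in the libraries labelled LEC or in cultured BECs. In Cont LECs and OE-LECs Pdpn had no reads either, Reln had 1 and 1 and Mmrn1 0 and 1. Lyve1 had 1998 and 1962 CPM and Flt4 107 and 130.1 CPM in those 2 libraries. Both genes were also counted in the BEC pair, Lyve1 at 604 and 1061 CPM and Flt4 at 144 and 98.3 CPM. Ccl21a had no reads in any of the 6 libraries. The ribosomal repeat Rn45s took 5.91% and 10.9% of the reads of the cultured BEC libraries and at most 0.57% elsewhere. In bulk RNA, fewer cells of a type and less RNA per cell cannot be told apart.

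Levels separated skin from culture for most uptake genes. For the 6 of them and Car3 the lowest skin CPM was above the highest cultured CPM. Plin1, Adipoq and Cidec had 0, 1 and 4 reads in the library labelled cKO and were not separated from culture. The margin was 1337-fold for Cd36 and 186-fold for Lpl, but 18.3-fold for Fabp4, 4.05-fold for Pparg, 1.39-fold for Fabp5 and 1.09-fold for Gpihbp1, whose intervals (43.8 to 53.1 CPM in skin Cont, 41.2 to 47.5 CPM in cultured Cont BECs) overlapped. Tissue, cell source and culture cannot be told apart in this contrast. Per kilobase of transcript, Fabp4 was the most abundant member in both skin libraries, at 942 and 587 CPM per kb. Cd36 followed in the library labelled Cont with 324 CPM per kb, ahead of Fabp5 with 155. In the library labelled cKO their order was exchanged, with 303 for Fabp5 and 178 for Cd36. Cont BECs had Gpihbp1 first at 53.7 CPM per kb and Fabp5 next at 39.0. Fabp5 led in OE-BECs (53.1 against 11.8 for Gpihbp1) and in both LEC libraries (112 and 80.6). Gpihbp1 and Fabp4 in Cont LECs, at 27.2 and 25.9 CPM per kb, had overlapping intervals.

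**Figure D1:**
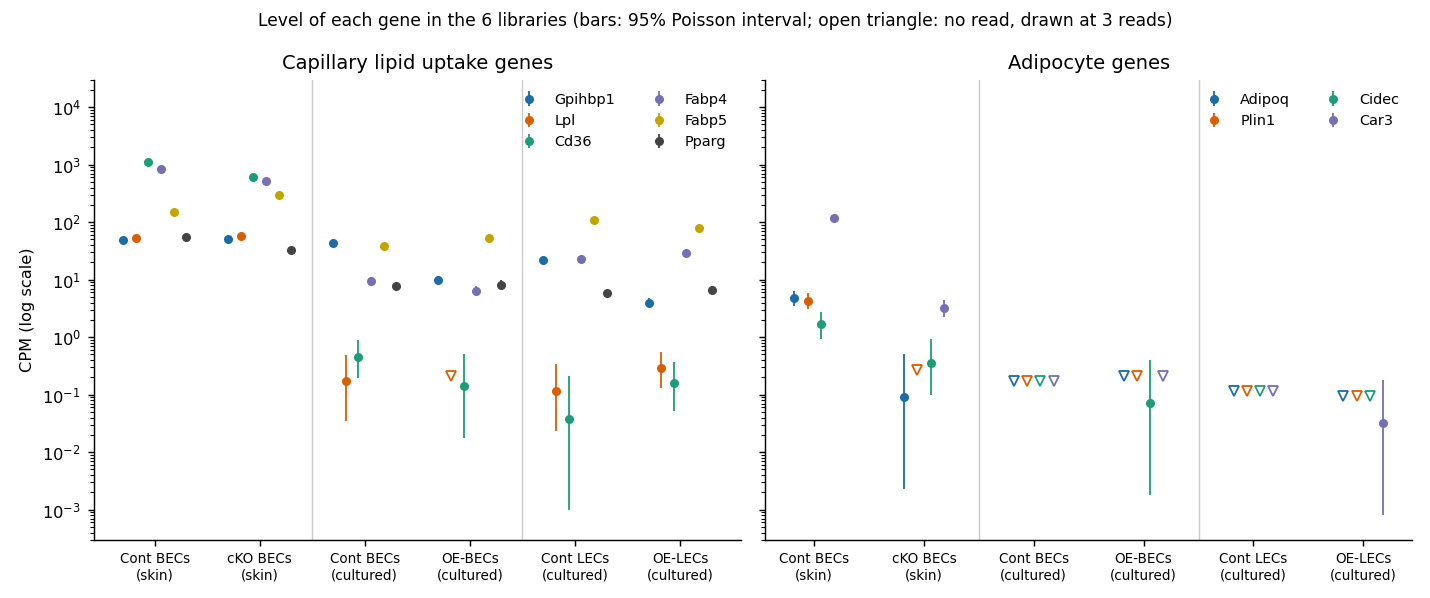
CPM on a log axis of the 6 capillary lipid uptake genes and the 4 adipocyte genes in each of the 6 libraries, with 95% Poisson intervals as bars and open triangles at the 3-read floor where no read was counted. Lpl and Cd36 stay under 0.46 CPM in all cultured libraries, and the adipocyte genes are at or near the floor in culture and, Car3 aside, in the library labelled cKO.

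Gpihbp1 (chr15:75596628-75599481, mm10), which holds lipoprotein lipase on the capillary wall, had 48.3 CPM in skin Cont and 51.9 CPM in the library labelled cKO. The cultured BEC pair had 44.3 CPM with empty virus and 9.76 CPM with overexpression, and the LEC pair 22.4 CPM and 3.96 CPM. The 2 overexpressing libraries were thus the lowest of the 6, and the other 4 lay within 22.4 to 51.9 CPM. On the normalized scale Gpihbp1 went from 686 to 155 counts in the BEC pair, a log2 ratio of -2.14 (95% interval -2.42 to -1.88) that was -1.53 against the endothelial markers. In the LEC pair it went from 634 to 114 counts, a log2 ratio of -2.48 (-2.77 to -2.20). The skin pair gave 0.05 (-0.13 to 0.23). Gpihbp1 was the member with the largest well-counted difference in both cultured pairs.

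Lpl (chr8:68880491-68907448), the lipase itself, had 54.0 CPM in skin Cont against 58.5 CPM in the library labelled cKO. The log2 ratio was 0.06 (-0.11 to 0.23). Cultured BECs held 3 reads with empty virus and 0 with overexpression, and cultured LECs 3 and 9. No fold was formed in the BEC pair, and the LEC pair gave 1.35 with an interval of -0.65 to 3.88. Lpl was thus counted in skin and at or near the floor in culture, where Gpihbp1 still had 123 to 783 reads.

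Cd36 (chr5:17781690-17888801), the fatty acid translocase of the cell surface, was the member with the most reads in skin. It had 1101 CPM in Cont and 605 CPM in the library labelled cKO, or 11124 and 5883 normalized counts, a 1.89-fold difference (log2 -0.92, -0.96 to -0.87). In culture it was hardly detected, with 8 and 2 reads in Cont BECs and OE-BECs and 1 and 5 reads in Cont LECs and OE-LECs. Both cultured ratios were past 3-fold (log2 -1.62 and 2.09), but their intervals, -4.89 to 0.71 and -1.07 to 7.65, included no difference.

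The carriers Fabp4 and Fabp5 differed in opposite directions in each pair, except that Fabp4 in the BEC pair turned sign when scaled to endothelial marker reads. Fabp4 (chr3:10204088-10208576), the carrier shared by adipocytes, macrophages and capillary endothelium, had 844 CPM in skin Cont and 526 CPM in the library labelled cKO. It had 9.39 and 6.39 CPM in Cont BECs and OE-BECs, and 23.2 and 28.7 CPM in Cont LECs and OE-LECs. Its log2 ratios were -0.74 (-0.79 to -0.69) in skin, -0.52 (-0.90 to -0.14) in BECs and 0.32 (0.17 to 0.47) in LECs. The skin difference was 1.67-fold, the cultured ones smaller. Fabp5 (chr3:10012548-10016607), the epidermal-type carrier that endothelium and macrophages also make, had 153 CPM in skin Cont and 299 CPM in the library labelled cKO. It had 38.5 and 52.4 CPM in Cont BECs and OE-BECs, and 110.5 and 79.6 CPM in Cont LECs and OE-LECs. The log2 ratios of Fabp5 were 0.91 (0.818 to 1.002), 0.48 (0.33 to 0.64) and -0.46 (-0.53 to -0.38), each the reverse of Fabp4. Fabp5 is the member whose reads are uncertain, since 2 processed pseudogenes, Gm14328 and Gm6166, match its transcript at 97.3% over 408 bases and 98.3% over 409 bases. Neither is a row of the count table.

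Pparg (chr6:115360951-115490399), the nuclear receptor, had 54.7 CPM in skin Cont and 33.1 CPM in the library labelled cKO. Its cultured levels lay within 5.93 to 8.18 CPM. The skin log2 ratio was -0.78 (-0.98 to -0.58), a 1.72-fold difference, and the cultured ratios, 0.13 (-0.24 to 0.50) and 0.19 (-0.12 to 0.50), had intervals that included no difference.

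The adipocyte genes formed a separate group. Adipoq (chr16:23146536-23158028), the gene of the fat cell hormone adiponectin, had 42 reads in skin Cont against 1 in the library labelled cKO. This was a 54.6-fold difference (log2 -5.77, -11.11 to -3.21) that rests on that 1 read and was -4.70 on the log2 scale with 1 count added to each normalized count. Plin1 (chr7:79720218-79732903), the coat of the large lipid droplet, had 38 reads and 0 reads. It was at least 16.5-fold lower when the empty library is set to 3 reads, and the upper limit of its log2 interval was -3.67. Cidec (chr6:113424634-113435760), which makes droplets fuse, had 15 and 4 reads, a 4.87-fold difference (log2 -2.28, -4.33 to -0.63). Each of these 3 genes was a low count even in Cont, at 4.74, 4.29 and 1.69 CPM. Car3 (chr3:14863512-14872523), a carbonic anhydrase of adipocytes and skeletal muscle, was the abundant member with 117 CPM in Cont and 3.25 CPM in the library labelled cKO. Its normalized count went from 1181 to 31.6, a 37.4-fold difference (log2 -5.22, -5.75 to -4.75). In the 4 cultured libraries Adipoq and Plin1 had no read, Cidec had 1 read in OE-BECs and Car3 had 1 read in OE-LECs. A count of 0 there allows up to 0.0967 to 0.215 CPM, so no cultured comparison of these genes could be made.

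**Figure D2:**
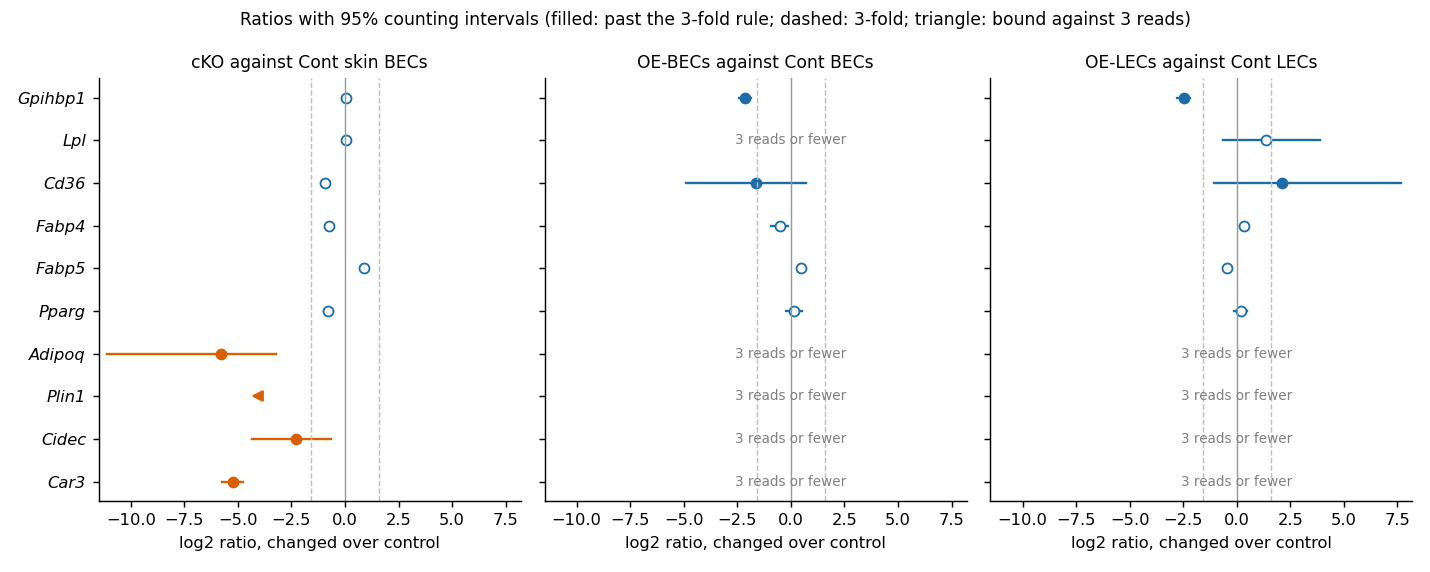
Log2 ratios of changed over control library for the 10 genes in the 3 comparisons, with 95% counting intervals as bars, uptake genes in blue and adipocyte genes in orange. Filled points are past 3-fold, the dashed lines mark 3-fold, and the triangle marks the bound of Plin1. All 4 adipocyte genes lie left of the 3-fold line in skin and Gpihbp1 does so in both cultured pairs.

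Genes were called by the study's rule, a normalized count of at least 5 (skin) or 3 (culture) in the higher library and more than 3 times the lower. In skin 0 of 10 members were called higher and 4 lower, all of them adipocyte genes, where 4.4% of 18784 genes with reads were called higher and 2.05% lower. Where the higher library had 100 normalized counts or more, 1.19% were higher and 0.509% lower, and Car3 was the member of that depth among the 4. All 10 members reached the minimum of 5 in skin. In the BEC pair 0 members were called higher and 2 lower (Gpihbp1 and Cd36), where 7.05% of 16820 genes were higher and 4.63% lower, and at 100 counts or more 0.527% and 1.55%. In the LEC pair 1 member was called higher (Cd36) and 1 lower (Gpihbp1), where 2.38% of 16160 genes were higher and 1.79% lower, and at 100 counts or more 0.59% and 0.238%. The cultured Cd36 calls rest on 8 reads or fewer. In the LEC pair Lpl reached the minimum of 3 and was not called.

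A bulk library mixes cell types, so the uptake genes were also set against the summed reads of the 14 pan-endothelial markers. This scaling raised the log2 ratio of every gene by 0.67 in skin, 0.62 in BECs and 0.16 in LECs. Per 1000 endothelial marker reads, Fabp4 had 119.6 reads in skin Cont and 113.8 in the library labelled cKO, and Pparg had 7.75 and 7.17. Their skin log2 ratios on this scale were -0.07 and -0.11, and that of Cd36 was -0.25 (156 and 131 reads per 1000). Gpihbp1 had 6.84 and 11.2 reads per 1000 and Lpl 7.66 and 12.7, log2 ratios of 0.71 and 0.73. Fabp5 stood further apart, with 21.7 and 64.7 reads per 1000 and a log2 ratio of 1.58. Fabp4 and Pparg thus differed in skin by about as much as the summed endothelial markers did, Cd36 by slightly more, and Adipoq (-5.10), Cidec (-1.62, -3.67 to 0.03) and Car3 (-4.56) by much more, although the interval of Cidec then reached no difference. In culture Gpihbp1 had 4.66 and 1.62 reads per 1000 in the BEC pair and 2.85 and 0.570 in the LEC pair. Its log2 ratio of -1.53 in BECs was then no longer past 3-fold, and that of -2.32 in LECs was. Fabp4 in the BEC pair turned to 0.10 (-0.29 to 0.48).

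**Figure D3:**
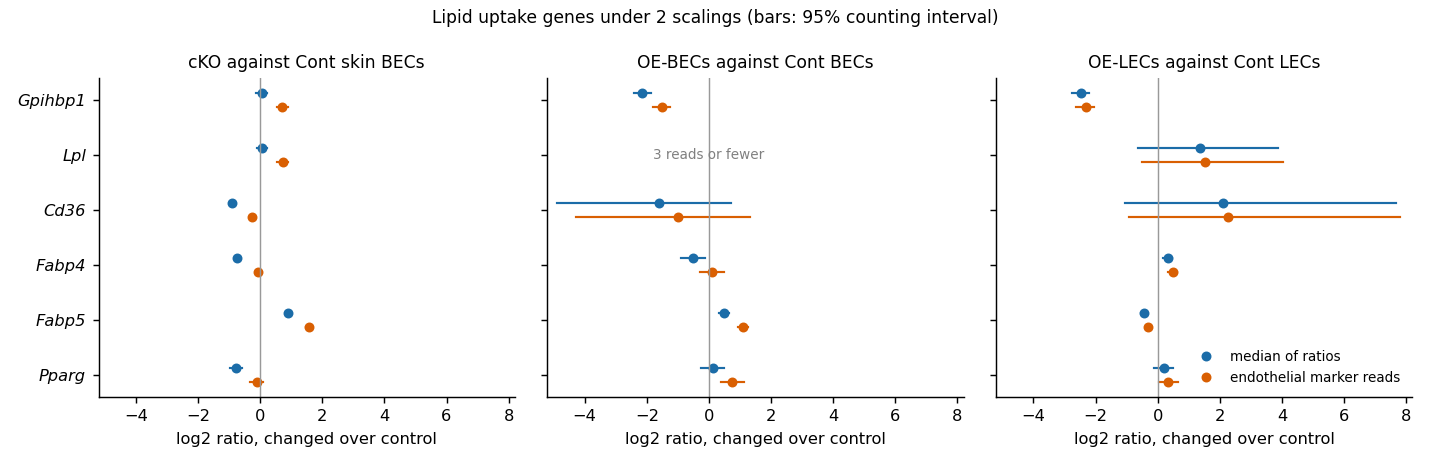
Log2 ratios of the 6 uptake genes in the 3 comparisons under median of ratios normalization (blue) and scaled to the summed endothelial marker reads (orange), with 95% counting intervals as bars. In skin Fabp4 and Pparg move to -0.07 and -0.11, and Gpihbp1 stays below 0 in both cultured pairs.

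Markers of other cell types differed between the skin libraries. Of all genes, 4.4% were called higher and 2.05% lower there. The 12 macrophage markers were all above 0 on the log2 scale in the library labelled cKO, with 0 called, and summed to 3885 CPM in Cont and 6224 CPM in the library labelled cKO. Mrc1 alone had 2538 and 3911 CPM of these sums. In culture the markers summed to 34.6 to 94.7 CPM, nearly all of it Cd68 (32.2 to 93.2 CPM). Adgre1, C1qa, C1qb and C1qc had no reads in any cultured library. The keratinocyte markers summed to 267 and 425 CPM in skin, with 4 of 12 called higher and 0 lower (Krt1, Krt10, Lor and Ivl). Lor had 1 and 8 reads and Ivl 1 and 7, and both intervals included no difference. On the log2 scale 9 of the 12 were above 0 and 3 below (Krt14, Krt17 and Trp63). The fibroblast and mesenchyme markers summed to 2674 and 1975 CPM in skin and to 3.05 to 22.4 CPM in culture, and the pericyte markers to 937 and 774 CPM in skin. The 14 skeletal muscle markers, relevant to Car3, summed to 48.7 and 33.7 CPM, with the defining genes Myod1 and Mb at 0. Of the 12 with reads, 9 were below 0 on the log2 scale, as Car3 was, with a median of -0.64, and 1 was called lower (Tnnc2, 16 and 5 reads) and 0 higher. The part of muscle RNA in the Car3 values was not tested. Mast cell markers summed to 2167 and 3065 CPM, with 0 called higher and 1 of 8 lower (Mrgprb1, 191 and 4 reads). Erythroid markers summed to 22.7 and 57.0 CPM, with the 4 adult globin genes at 0 in both and the embryonic globin genes Hba-x (4 and 172 reads) and Hbb-y (18 and 249 reads) called higher. The lymphatic markers summed to 2788 and 3246 CPM in these Lyve1-negative sorts, with Lyve1 at 1027 and 1801 CPM, Prox1 at 147 and 79.7 CPM, Reln at 465 and 265 CPM, and 0 of 7 called. The part of these cells in the skin values of Fabp4, Fabp5, Cd36, Lpl and Pparg, which macrophages also express, was not tested.

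Of 34 further adipocyte genes, 8 were called lower and 0 higher in the library labelled cKO, where 2.05% and 4.4% of all genes were. On the log2 scale 23 were below and 11 above 0, with a median ratio of -0.33 (with 1 count added), where the median of all genes was 0.01. Gpd1, which makes the glycerol backbone of triglyceride, had 198 and 32 reads, an 8.04-fold difference (log2 -3.01, -3.59 to -2.46). Aqp7, the glycerol channel, had 89 and 31 reads, a 3.73-fold difference (log2 -1.90, -2.54 to -1.30). The other 6, chosen for mention after their values were seen, had fewer reads, with 63 and 5 for the lipogenic gene Thrsp, 29 and 3 for the receptor gene Acvr1c, 27 and 5 for the FGF co-receptor gene Klb, 23 and 0 for Cidea, 17 and 2 for Pck1 and 6 and 1 for the thermogenic gene Ucp1. The interval of Ucp1 included no difference. Also named after their values were seen, the adipocyte regulator Cebpa had 89 and 213 reads (log2 0.88, not called), and the hormone genes Lep and Retn and the adipsin gene Cfd held at most 6 reads in either skin library. In the BEC pair 1 of the 34 genes was called higher (Acvr1c) and 1 lower (Gpd1), and in the LEC pair 2 higher (Aqp7 and Klb) and 1 lower (Klf15), each on 4 reads or fewer.

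Of 15 preadipocyte and adipogenic precursor genes, 0 were called in either direction in skin, which is near the 2.05% and 4.4% of all genes, and their median log2 ratio was -0.09. Zfp521, an inhibitor of adipogenesis, had 1348 and 1716 reads (log2 -0.03, -0.13 to 0.07), and Klf4 had 1627 and 1007 reads (-1.07, -1.18 to -0.96). In the BEC pair 2 were called higher (Klf5 with 28 and 81 reads, Gata3 with 9 and 23) and 1 lower (Pi16 with 44 and 3), and in the LEC pair 0 and 1 (Icam1 with 14 and 4). Ly6a and Gata2, the best counted of the list in culture, had log2 ratios of 0.23 and 0.37 in BECs and 0.16 and -0.13 in LECs.

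**Figure D4:**
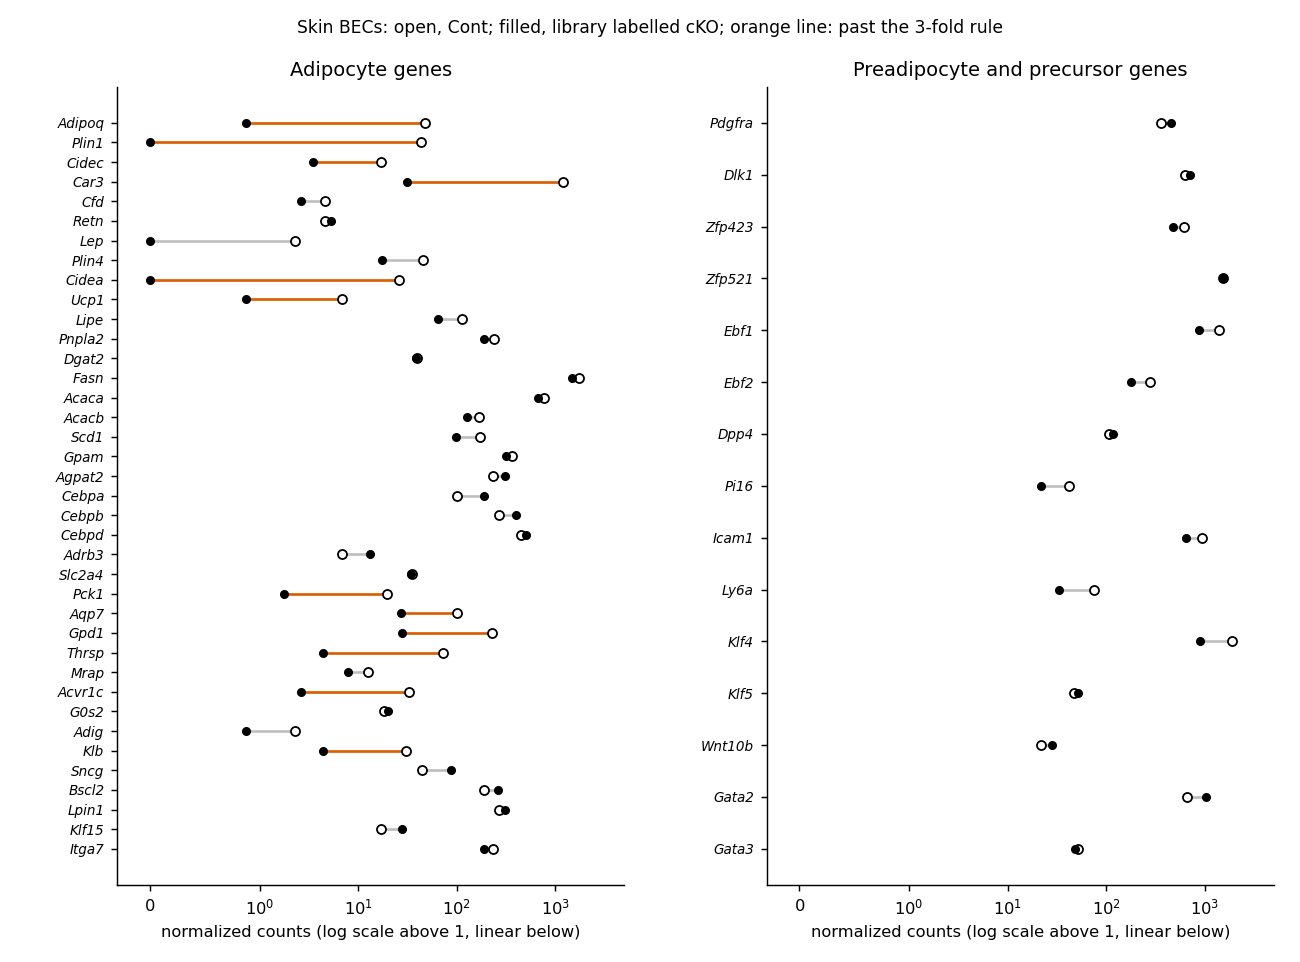
Normalized counts of the 4 adipocyte members with the 34 further adipocyte genes (left) and of the 15 precursor genes (right) in skin BECs, Cont as open and the library labelled cKO as filled points, on an axis that is logarithmic above 1 and linear below. Orange lines join values past the 3-fold rule: 12 of the adipocyte genes, all with the filled point on the left, against none of the precursor genes.

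The lipase pathway around Lpl and Gpihbp1 held 22 genes. In skin 0 were called higher and 1 lower, the endothelial lipase gene Lipg with 13 and 3 reads. The best counted were Apoe, a ligand of lipoprotein receptors that macrophages make in quantity, with 6911 and 15082 reads (log2 0.75, 0.71 to 0.79), and Hspg2, the heparan sulfate proteoglycan perlecan, with 10758 and 9567 reads (-0.55, -0.59 to -0.51). In the BEC pair 2 were called lower (Lipc, 17 and 1 reads, and Pcsk6). The well-counted gene of these was Pcsk6, a proprotein convertase, with 2526 and 623 reads (-1.64, -1.77 to -1.51). In the LEC pair Angptl4, a secreted inhibitor of lipoprotein lipase and a PPAR target, had 100 and 484 reads, a 4.12-fold difference (2.04, 1.73 to 2.37). It was the 1 gene of the list called there, with 0 lower. Angptl4 had 22 and 38 reads in the BEC pair (1.17, 0.377 to 1.999, not called) and 163 and 176 in skin (-0.27, -0.58 to 0.05).

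Of 26 genes of endothelial fatty acid transport and its control, 1 was called higher and 0 lower in skin (Acsl6, 1 and 8 reads), 2 and 2 in BECs (Apln and Fabp2 higher, Fabp2 on 1 and 4 reads, and Flt1 and Tcf15 lower), and 0 and 1 in LECs (Tcf15). Cav1, the caveolar coat protein that works with CD36, had 21106 and 13443 reads in skin (-1.03, -1.06 to -0.997), 2285 and 3781 in the BEC pair (1.11, 1.03 to 1.18), and 17067 and 21389 in the LEC pair (0.09, 0.07 to 0.12). Flt1, the receptor of VEGF-B and itself a pan-endothelial marker, had 5099 and 888 reads in the BEC pair (-2.14, -2.24 to -2.04). Apln, the ligand of the apelin receptor, had 4489 and 12191 reads there (1.82, 1.78 to 1.87). The factors Meox2 and Tcf15, known as drivers of fatty acid uptake in heart capillaries, were named after their values were seen. Meox2 had 1206 and 1285 reads in skin and at most 1 read in each cultured library. Tcf15 had 69 and 77 reads in skin, 34 and 3 in the BEC pair (-3.12, -5.47 to -1.45), and 10 and 1 in the LEC pair (-3.55, -8.99 to -0.74). Both cultured calls of Tcf15 rest on few reads, and a link to Gpihbp1 was not tested.

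Partners of Pparg, genes for the use of fatty acids and droplet genes were counted in the same way. Of all genes, 4.4% were called higher and 2.05% lower in skin. The shares were 7.05% and 4.63% in BECs, and 2.38% and 1.79% in LECs. The lists hold 9 to 20 genes, so counts this small say little about them. Of 12 PPAR and RXR factors, 0 were called in skin or LECs and 1 higher and 0 lower in BECs, Ppara with 0 and 8 reads. The corepressor gene Ncor1 had log2 ratios of -0.15 in skin, -0.15 in BECs and -0.13 in LECs. Of 20 genes of fatty acid oxidation, 0 were called in skin or LECs and 1 higher and 0 lower in BECs, Cpt1c with 3 and 11 reads. Hadha, of the mitochondrial trifunctional enzyme, had log2 ratios of -0.07, -0.29 and -0.17 in skin, BECs and LECs. Of 9 lipid droplet genes shared by many cells, 0 were called higher and 1 lower in skin (Plin5, 24 and 9 reads), 0 in BECs, and 0 higher and 2 lower in LECs (Plin5 with 3 and 0 reads, Mgll with 6 and 2). Plin2, the droplet coat of cells other than adipocytes, had 471 and 1193 reads in skin (0.96, 0.81 to 1.12) and 3183 and 7187 in the LEC pair (0.94, 0.884 to 1.005). The skin ratio of Plin2 was thus opposite in sign to that of the adipocyte coat gene Plin1. Mgll, the best counted of the 9 in skin, had 1192 and 684 reads there (-1.18, -1.32 to -1.04), the sign of Plin1. Of the 9 genes, 3 were above 0 in skin and 6 below.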

How the data were processed

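RNA-seq libraries were prepared with the ScriptSeq v2 kit. Per the study's methods, the authors trimmed adapters with skewer, aligned reads to mm10 with STAR, counted them per gene with VERSE and deposited raw counts for 24421 gene symbols, 1 library for each of the 6 groups. All columns were used, and groups follow the sample labels.

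Counts were normalized by median of ratios on the 2 libraries of each comparison (DESeq2 1.42.0, R 4.3.3), and genes were called at more than 3-fold with a minimum of 5 (skin) or 3 (culture) normalized counts. CPM was computed from library totals. With 1 library per group no test was made. Intervals of ratios are Clopper-Pearson, those of CPM Poisson. They cover counting error only, since amplified reads were not tagged by molecule. A floor of 3 reads stood for a count of 0 in bounds. List medians used 1 added count. Alternatives were TMM (edgeR 4.0.16), total counts with and without Rn45s, size factors from all 6 libraries or from well-counted genes, endothelial marker scaling, other minimums, a 2-fold rule and a pseudocount. Positions and lengths (1 principal transcript a gene) come from GENCODE M21, and no exon of a member overlapped another gene's. The steps were tested on simulated data. Python 3.11.15, numpy 2.4.6, scipy 1.17.1 and pandas 2.3.3 were used.

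The members and all lists were chosen with earlier results of these data known. Named are the members, Dot1l, of each list up to 3 called genes a direction that reach 100 normalized counts or otherwise the 2 best counted, and, for Gpihbp1 and Adipoq, the 3 genes most alike over the libraries. Other names are said to be chosen after their values were seen, or account for counts of few genes. Some genes that this rule names are not reported here.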

Additional observations from a re-analysis of the deposited data

Results flagged for a closer look

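The directions of Fabp4 and Fabp5 differed between the cultured pairs. Fabp4 had a log2 ratio of -0.52 in OE-BECs and 0.32 in OE-LECs, and Fabp5 had 0.48 in OE-BECs and -0.46 in OE-LECs. Each rests on 1 library against 1, so the difference between cell types was not tested. Scaled to endothelial marker reads, Fabp4 was 0.10 in OE-BECs and 0.48 in OE-LECs and the opposite directions were gone, while Fabp5 was 1.10 and -0.30. All 4 ratios were under 3-fold.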

How the results depend on the processing

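No log2 ratio of a member that was past 3-fold changed sign under any alternative run. Of 140 ratios of members under the other scalings and the pseudocount, 123 moved by less than their counting interval and 17 by more, 13 of them under the endothelial scaling and the other 4 being Cd36 (-0.86) and Fabp4 (-0.68) in skin under both total-count scalings. The count of 4 members lower in skin was the same under every alternative run but a minimum of 20, which left 3, without Cidec. Members lower in BECs went from 2 to 1 without Rn45s, with a minimum of 20 or with a pseudocount, and to 0 under the endothelial scaling, and members higher there from 0 to 1 without a minimum. Members higher in LECs went from 1 to 0 with size factors of all 6 libraries, a minimum of 20 or a pseudocount, and to 2 without a minimum or at 2-fold. Over all pathway lists, 1 gene higher in skin became 2 with factors of all 6 libraries, 8 under the endothelial scaling, 0 with a minimum of 20, 5 without a minimum and 4 at 2-fold, and 10 lower became 18 at 2-fold. Further adipocyte genes higher in skin went from 0 to 2 under the endothelial scaling. In BECs, 8 higher became 3 with a minimum of 20 and 13 without one, and 6 lower became 3 under the endothelial scaling and 10 at 2-fold. In LECs, 3 higher became 1 with factors of all 6 libraries, a minimum of 20 or a pseudocount, 11 without a minimum and 10 at 2-fold, and 5 lower became 3 with those factors or a pseudocount, 0 with a minimum of 20, 8 without one and 11 at 2-fold. Fabp5 in OE-BECs was 58.8 CPM without Rn45s and 52.4 CPM with it. Over all genes, the endothelial scaling turned 827 higher and 386 lower in skin into 1952 and 172, and 1186 and 779 in BECs into 1783 and 399. A minimum of 20 gave 372 and 153 in skin, 222 and 261 in BECs and 109 and 51 in LECs. No minimum gave 1833 and 1160, 2086 and 1531, and 1437 and 849. At 2-fold there were 1657 and 837, 1692 and 1303, and 692 and 591. Factors of all 6 libraries gave 246 and 168 in LECs. No paired analysis was possible because each group has 1 library and no comparison could pair replicates. The causes of these shifts were not tested. Depth limits Adipoq, Plin1 and Cidec in skin and Lpl and Cd36 in culture, where few reads stand behind each ratio.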

Other observations

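The genes most like 2 of the members over the 6 libraries were sought among 11153 genes with at least 10 CPM in a library, by Pearson r of log2(CPM + 1), as a description. For Gpihbp1 they were Hoxd4 (r = 0.983), Pde2a (0.982) and Csrp2 (0.980). In the BEC pair Hoxd4 had 689 and 203 reads, Pde2a 4490 and 1165 and Csrp2 1254 and 290. For Adipoq they were Mrgprb1 (0.999), with 191 and 4 reads in skin, Serpina3h (0.997), with 106 and 4, and Tcf24 (0.996), with 863 and 10. These 3 genes had no read in any cultured library. Mrgprb1 is 1 of the 8 mast cell markers, whose summed level was higher in the library labelled cKO (3065 against 2167 CPM). For Adipoq the r rests on 1 library, skin Cont, which holds nearly all of its reads.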
